A study of Mus musculus with 8 samples.

Results

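Guanylate-binding proteins (GBPs) and immunity-related GTPases (IRGs) are the classical products of the response to interferon gamma, and 9 genes of that response are described here across antigen-experienced CD4 T cells of the inflamed mouse central nervous system. The 9 genes are Irf1, the guanylate-binding proteins Gbp2, Gbp2b, Gbp3, Gbp4, Gbp5 and Gbp7, and the immunity-related GTPases Igtp and Iigp1. They were taken by gene symbol from the feature lists of 4 single-cell RNA libraries and are 9 of the 32285 genes counted. All 9 had unique molecular identifiers (UMIs, each standing for 1 captured transcript molecule) in every library, and all 9 passed the count minimum of every comparison.

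Foxp3-Cre-YFP mice had experimental autoimmune encephalomyelitis (EAE), which models multiple sclerosis in mice, and their regulatory T cells carry a yellow fluorescent reporter. Conventional CD4 T cells (CD44+, Foxp3-YFP-, TCRβ+, CD11b-) were sorted from spinal cord and from brain freed of meninges, at day 50, the chronic phase, and at day 14, the acute phase. The 4 groups were spinal cord day 50, spinal cord day 14, brain day 50 and brain day 14, and each was 1 RNA library with counts of 3 surface antibodies. The number of mice behind a library is not given in the labels, and no library of mice without EAE was part of the comparison.

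Interferon gamma binds the receptor chains IFNGR1 and IFNGR2, which signal through the kinases JAK1 and JAK2. The signal acts at gamma-activated sites (GAS) in the DNA and switches on Irf1, whose product binds interferon-stimulated response elements (ISRE) in front of further genes, among them the Gbp and Irg families. These GTPases collect on the vacuoles of intracellular microbes in mice, and T cells are themselves a main source of interferon gamma.

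The promoter windows of the members are shown because these 2 kinds of element are the known binding sites of the pathway's factors. RefSeq promoter sequences (GRCm38.p6, 250 bases before to 50 bases after each start site) were at hand for 7 of the 9 genes, with none for Gbp4 and Iigp1. Both strands were searched for the ISRE-type letters, GAAA and GAAA with NN between them, and the GAS letters TTCNNNGAA. The ISRE-type letters occurred in 3.44% of 32851 promoters, the GAS letters in 8.30%, and at least 1 of them in 11.3%. The sequences below run 5′ to 3′ on the plus strand, which is the coding strand of all 7 genes, and the capitals mark the matches with 20 bases kept on each side where the window allowed.
Gbp2, ISRE-type, chr3:142620584-142620633: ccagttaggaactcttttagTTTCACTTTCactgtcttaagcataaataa
Gbp2b, ISRE-type, chr3:142594690-142594739: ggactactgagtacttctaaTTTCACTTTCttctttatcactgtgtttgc
Gbp3, ISRE-type, chr3:142559979-142560034: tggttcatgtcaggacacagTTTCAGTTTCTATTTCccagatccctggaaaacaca
Gbp5, ISRE-type, chr3:142496749-142496798: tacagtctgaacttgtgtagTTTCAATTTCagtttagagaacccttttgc
Gbp5, GAS, chr3:142496862-142496910: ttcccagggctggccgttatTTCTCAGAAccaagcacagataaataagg
Gbp7, GAS, chr3:142530210-142530277: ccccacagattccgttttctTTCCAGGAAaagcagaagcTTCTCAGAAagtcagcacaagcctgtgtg
Gbp7, ISRE-type, chr3:142530263-142530312: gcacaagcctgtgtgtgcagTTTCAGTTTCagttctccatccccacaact
Igtp, GAS and ISRE-type, chr11:58199491-58199551: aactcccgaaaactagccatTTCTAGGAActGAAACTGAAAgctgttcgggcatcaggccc
Irf1, GAS, chr11:53769904-53769952: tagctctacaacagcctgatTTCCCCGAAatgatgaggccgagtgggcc
The ISRE-type letters were present in front of Gbp2, Gbp2b, Gbp3, Gbp5, Gbp7 and Igtp, and Gbp3 held 2 matches that overlap each other. Gbp5 held a further GAS match, not printed, at the far end of its window, and Gbp7 held 2 GAS matches. The window of Irf1 held 1 GAS match and no ISRE-type match, and the windows of the second annotated start sites of Gbp3 and Irf1 held neither.

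In the same annotation 5 of the members lie side by side on chromosome 3, in the order Gbp5 (chr3:142496934-142522344), Gbp7 (chr3:142530336-142550151), Gbp3 (chr3:142560016-142573213), Gbp2b (chr3:142594816-142619179) and Gbp2 (chr3:142620663-142638008). Gbp4 lies on chromosome 5, Irf1 and Igtp on chromosome 11, and Iigp1 on chromosome 18. All 9 are annotated as protein-coding. The Gbp genes are close paralogs, and how reads shared between them were counted is not given in the sources used here, so the split of counts among them is uncertain.

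Cells were kept if 500 or more genes were detected and mitochondrial UMIs made up 10% or less. They numbered 1620 in spinal cord at day 50, 9270 in spinal cord at day 14, 348 in brain at day 50 and 10313 in brain at day 14, with 6078142, 50710551, 1177903 and 47272714 RNA UMIs in that order and 3014.5 to 4921 UMIs in the median cell. A CD3 or T cell receptor UMI was found in 99.7% to 100% of cells, and Foxp3 had 0 to 2 UMIs in a library. Summed markers of B cells reached 0.658 to 1.70 UMIs per 1000000 (CPM), those of myeloid cells and microglia 22.1 to 45.9 CPM, and those of glia and endothelium 68.9 to 136 CPM. Dendritic cell markers summed to 96.8 CPM in brain at day 50, and to 11.2 to 15.1 CPM in the other libraries. Most of that sum in brain came from class II genes, Cd74 with 53.5 CPM at day 50 and 10 CPM at day 14, H2-Ab1 with 23.8 CPM and 3.07 CPM, and H2-Aa with 18.7 CPM and 0.571 CPM, while Itgax, Flt3, Siglech and Clec9a had no UMI in brain at day 50. The part of these markers in the brain day 50 values was not tested. The day 14 libraries of the 2 tissues shared 34 cell barcodes, and the other pairs shared 0 to 5. Every difference between libraries is a difference between single libraries with no replicate check, and its 95% interval covers counting error only. No cell type that should lack these genes was at hand, so the part of free RNA in the shares of cells was not tested.

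Irf1, the transcription factor that carries the signal on to the GTPase genes, was nearly level over the 4 libraries. It reached 111 CPM (95% interval 102 to 119) in spinal cord at day 50, 95.9 CPM (93.2 to 98.7) in spinal cord at day 14, 107 CPM (89.1 to 127) in brain at day 50 and 99.1 CPM (96.3 to 102) in brain at day 14. After thinning each cell to 2000 UMIs, 18.5%, 17.0%, 18.8% and 16.7% of cells in that order had an Irf1 UMI. No neighbour in the order of its 4 levels differed beyond its counting interval. Its highest and lowest levels did, with a ratio of 1.15 (1.06 to 1.25) for spinal cord at day 50 over day 14.

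Among the guanylate-binding proteins, Gbp7 and Gbp4 had lower values in both day 50 libraries than in either day 14 library. Gbp7, a GBP that acts against intracellular microbes in mice, had 43.8 CPM in spinal cord at day 50 against 83.1 CPM at day 14, and 57.7 CPM in brain at day 50 against 74.7 CPM at day 14. Gbp4 had 40.6 CPM in spinal cord at day 50 against 62.2 CPM at day 14, and 34.8 CPM in brain at day 50 against 45.6 CPM at day 14. For Gbp4, spinal cord at day 14 stood above the next library beyond counting error, and the other 3 levels did not separate from their neighbours. In thinned cells, 8.04% of spinal cord cells at day 50 and 14.3% at day 14 had a Gbp7 UMI, against 8.80% of brain cells at day 50 and 13.3% at day 14.

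Gbp2b, also known as Gbp1, had the widest fold range of the 9 over the libraries. It fell to 4.77 CPM (29 UMIs) in spinal cord at day 50, against 18.1 CPM (919 UMIs) at day 14, and to 1.70 CPM (2 UMIs) in brain at day 50, against 14.6 CPM (689 UMIs) at day 14. Its neighbour Gbp2 had 24.7 CPM in spinal cord at day 50 and 38.8 CPM at day 14, and 19.5 CPM in brain at day 50 and 34.1 CPM at day 14. For both genes the day 14 levels stood above the day 50 levels in either tissue, and the 2 day 50 levels could not be told apart at this depth. The brain count of Gbp2b at day 50 lies under the 3 counts that a count of 0 allows, which are 2.55 CPM in that library.

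For Gbp3 and Gbp5, the 2 day 50 levels did not both lie below the 2 day 14 levels. Gbp3 had 11 CPM in spinal cord at day 50, 15.0 CPM in spinal cord at day 14, 16.1 CPM in brain at day 50 and 16.5 CPM in brain at day 14. Of the steps between neighbouring levels, only that between the 2 spinal cord libraries was beyond counting error. Gbp5, which promotes inflammasome assembly in macrophages, had 6.91 CPM in spinal cord at day 50, 12.2 CPM in spinal cord at day 14, 11.9 CPM in brain at day 50 and 9.58 CPM in brain at day 14. In the order of its levels, spinal cord at day 50 was below brain at day 14, and the other steps between neighbours were within counting error. In spinal cord its ratio of day 50 over day 14 was 0.564 (0.403 to 0.772).

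The 2 IRG genes differed in their order over the libraries. Igtp, also known as Irgm3, which belongs to the regulatory subgroup of the family, had 45.1 CPM in spinal cord at day 50 and 90.4 CPM at day 14, and 50.9 CPM in brain at day 50 and 72.7 CPM at day 14. Its share of thinned cells was 6.63% in day 50 and 15.3% in day 14 spinal cord, and 8.80% in brain at day 50 and 12.4% at day 14. Iigp1, also known as Irga6, an effector GTPase that coats microbial vacuoles in mice, had 8.23 CPM (50 UMIs) in spinal cord at day 50, 11.3 CPM (575 UMIs) in spinal cord at day 14, 17.0 CPM (20 UMIs) in brain at day 50 and 10.1 CPM (479 UMIs) in brain at day 14. No neighbour in the order of the Iigp1 levels differed beyond counting error, and 2 cells held 20% of its UMIs in brain at day 50.

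**Figure D1:**
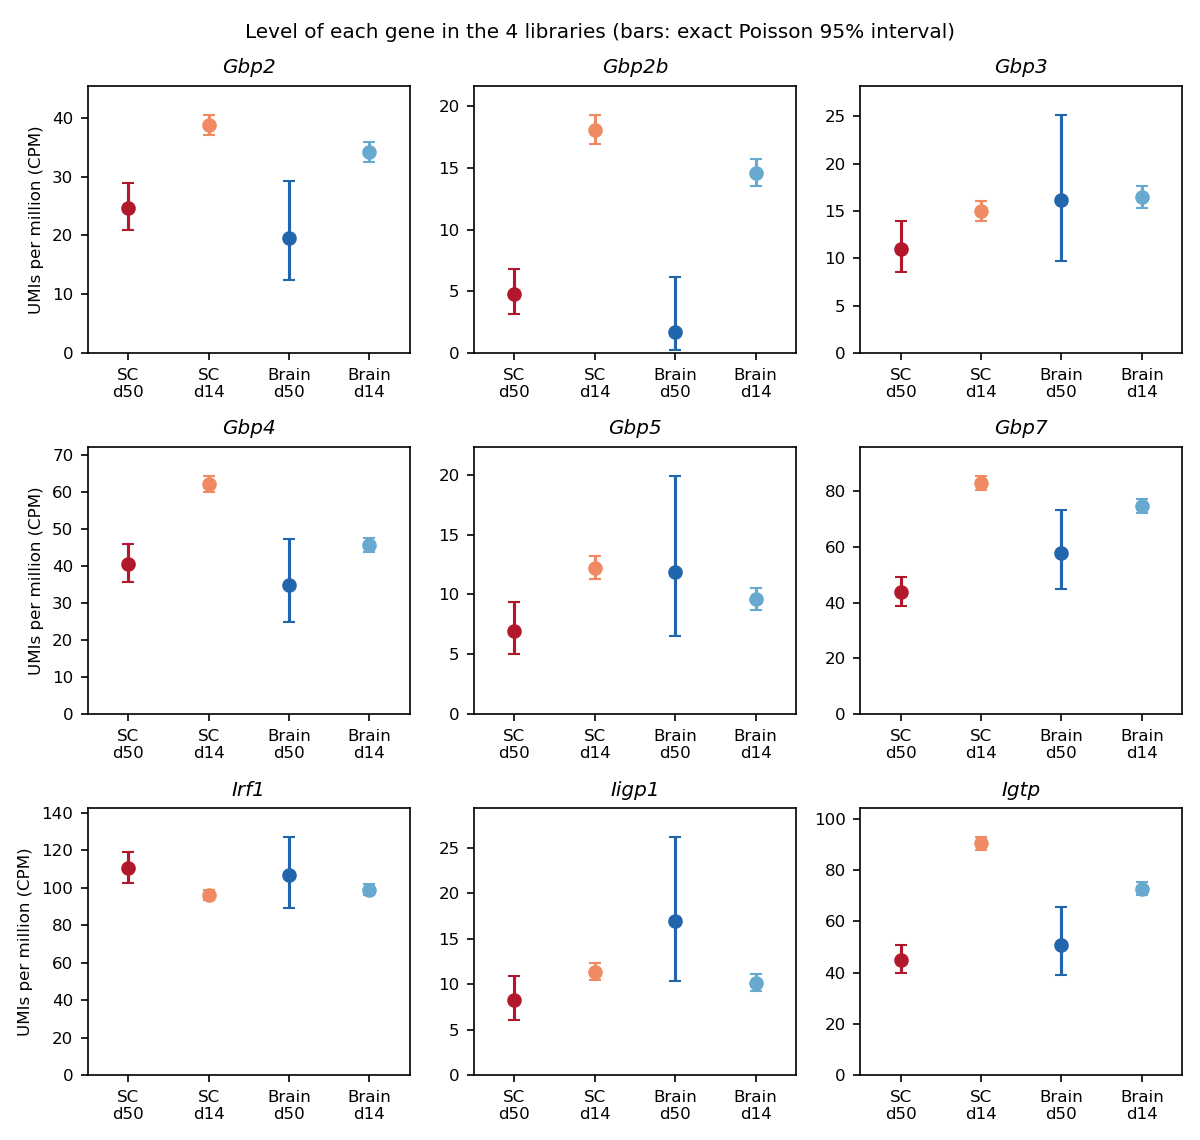
UMIs per 1000000 (CPM, y axis, linear from 0) of the 9 genes in the 4 libraries (x axis), each point 1 library with its exact Poisson 95% interval. Gbp2, Gbp2b, Gbp4, Gbp7 and Igtp sit lower in the day 50 libraries, Irf1 stays between 95.9 and 111 CPM, and the brain day 50 intervals are wide because that library holds 348 cells.

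The comparison of days asks how the cells of the chronic phase differ from those of the acute phase. In spinal cord, 6 of the 9 genes were lower at day 50 by 1.5-fold or more with an interval that excluded no change, and 0 were higher. Of all genes compared there, 23.8% were lower and 6.76% higher by the same rule, and the median log2 ratio over all genes was -0.29. The 6 were Gbp2b with a log2 ratio of -1.93 (-2.51 to -1.39), Igtp with -1.0 (-1.19 to -0.83), Gbp7 with -0.92 (-1.11 to -0.75), Gbp5 with -0.83 (-1.31 to -0.37), Gbp2 with -0.65 (-0.90 to -0.41) and Gbp4 with -0.61 (-0.81 to -0.43). The median over the 9 genes was -0.65.

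Relative to the all-gene median, 3 of the 9 remained lower by 1.5-fold or more, against 11.6% of all genes. These were Gbp2b at -1.64, Igtp at -0.72 and Gbp7 at -0.64. Irf1 had a log2 ratio of 0.20 (0.09 to 0.32), or 0.49 relative to the median, which did not reach 1.5-fold. Gbp3 and Iigp1 did not reach 1.5-fold on either scale, with log2 ratios of -0.44 and -0.46. At a fold of 2, Gbp2b and Igtp were lower, against 10.1% of all genes.

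In brain, 2 of the 9 genes were lower at day 50 and 1 was higher, against 5.64% and 5.16% of all genes compared. Gbp2b was lower with a log2 ratio of -3.10 (-6.15 to -1.24) and Gbp2 with -0.81 (-1.47 to -0.22). Iigp1 was higher with a log2 ratio of 0.74 (0.02 to 1.39), from 20 UMIs in the day 50 library, and this call was lost when the 2 cells richest in Iigp1 were left out of each library (0.47, -0.35 to 1.19). Those cells held 20% of its UMIs at day 50 and 3.34% at day 14, so leaving them out lowers the ratio by construction. Without cells holding more than 2 UMIs of other-lineage markers, Iigp1 was at 17.5 CPM in brain at day 50 and 10.4 CPM at day 14. Igtp with -0.51, Gbp7 with -0.37 and Gbp4 with -0.39 did not reach 1.5-fold, although the intervals of Igtp (-0.91 to -0.15) and Gbp7 (-0.74 to -0.025) lay below no change. At a fold of 2, Gbp2b was lower and 0 were higher, against 2.28% and 3.05% of all genes. The brain library at day 50 held 373 UMIs of the 9 genes in all.

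**Figure D2:**
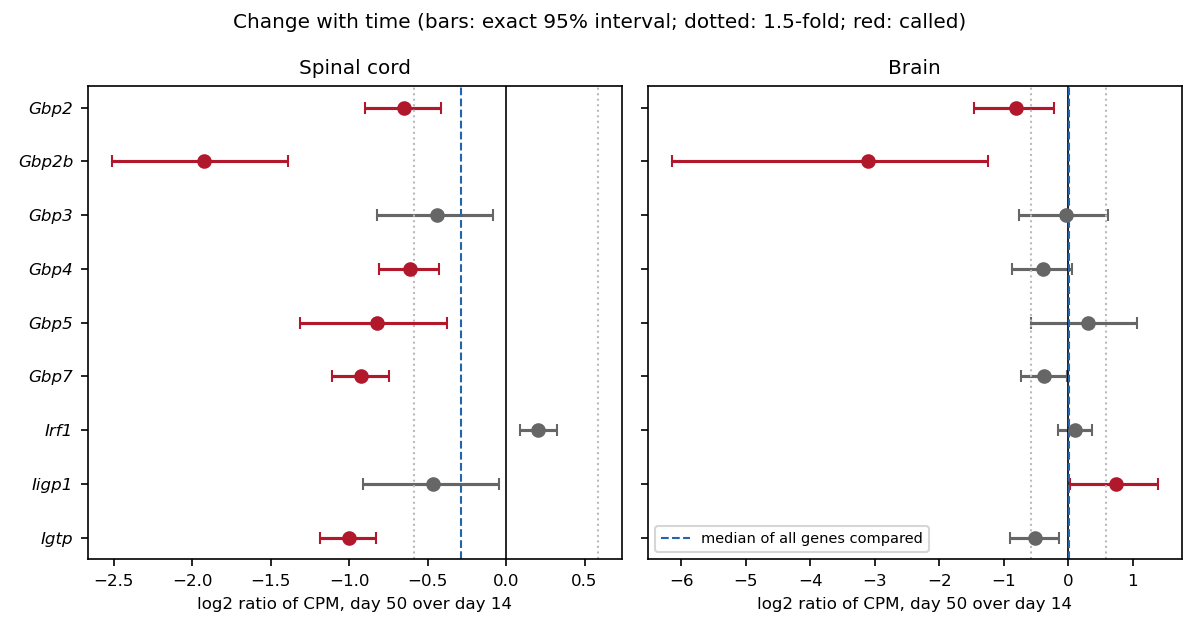
Log2 ratio of CPM at day 50 over day 14 (x axis) for the 9 genes (rows) in spinal cord (left panel) and brain (right panel, with a wider axis), with exact 95% intervals. The dashed line is the median of all genes compared, the dotted lines mark 1.5-fold, and red marks genes past 1.5-fold with an interval that excludes no change: 6 lower in spinal cord, and 2 lower and 1 higher in brain.

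The comparison of tissues showed smaller differences. At day 14, 0 of the 9 genes differed by 1.5-fold between spinal cord and brain, against 14.7% of all genes higher and 3.66% lower in spinal cord. The largest ratio was that of Gbp4, 1.37 (1.29 to 1.44), and 6 of the 9 intervals lay above 1. The median log2 ratio was 0.18 over the 9 genes and 0.20 over all genes compared, so relative to all genes the members stood at -0.01. At day 50, Iigp1 was lower in spinal cord than in brain with a log2 ratio of -1.05 (-1.82 to -0.22), against 4.41% of all genes lower and 2.51% higher. This call rests on the same 20 brain UMIs and was lost after thinning. The comparisons of days and of tissues share libraries and are not independent of each other.

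Other genes of the interferon pathways were counted from lists in the same libraries. In spinal cord between the days, 23.8% of all genes were lower and 6.76% higher by the same rule. Relative to the all-gene median these shares were 11.6% and 11.9%. Of the other IRG genes, 4 of 5 were lower in spinal cord at day 50, with a median log2 ratio of -1.0, and the same number after subtraction of the all-gene median. Irgm1, a regulatory IRG, had 25.2 CPM at day 50 and 50.4 CPM at day 14, while Ifi47 had 85.4 CPM at day 50 and 120 CPM at day 14 and did not reach 1.5-fold. Tgtp1 and Tgtp2, nearly identical copies whose counts cannot be separated with confidence, are among the 4. Of the other guanylate-binding proteins, 1 of 4 measured was lower, near the share of all genes. It was Gbp6 with 22.2 CPM at day 50 and 46.3 CPM at day 14, while Gbp8 had 23.7 CPM and 28.5 CPM.

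Ifngr2, the signalling chain of the interferon gamma receptor, was higher in spinal cord at day 50 with 12 CPM at day 50 and 3.27 CPM at day 14, and was named after its values were seen. Ifngr1 with 536 CPM at day 50 and 785 CPM at day 14 did not reach 1.5-fold.

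The type I interferon-stimulated genes did not share this direction. In spinal cord 7 of 11 were higher at day 50 and 0 were lower, against 6.76% and 23.8% of all genes, with a median log2 ratio of 0.73. Relative to the all-gene median 10 of 11 were higher, where 11.9% of all genes were. Ifi27l2a reached 1312 CPM at day 50 and 629 CPM at day 14, and Ifit3 23.9 CPM and 14.3 CPM. At day 14 all 11 were lower in spinal cord than in brain, with a median log2 ratio of -1.24, where 0 of the 9 members and 3.66% of all genes were lower. Isg15, a ubiquitin-like modifier, had 45.4 CPM in spinal cord and 106 CPM in brain at day 14.

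The remaining lists moved less evenly in spinal cord between the days. Of all genes compared there, 23.8% were lower and 6.76% higher, or 11.6% and 11.9% relative to the all-gene median. Of 12 class I presentation and immunoproteasome genes, 1 was higher and 0 were lower, H2-D1 with 3347 CPM at day 50 and 2223 CPM at day 14. Relative to the all-gene median 3 of them were higher and 0 lower. Of 5 other interferon gamma targets measured, 1 was higher and 1 lower, or 2 higher and 1 lower relative to the median. The higher on the first scale was the chemokine gene Cxcl10 with 21.9 CPM at day 50 and 4.16 CPM at day 14. Of 7 other IRF genes, 0 were higher and 2 lower, and relative to the all-gene median 1 was higher and 0 lower; Irf7 had 60.1 CPM at day 50 and 43.1 CPM at day 14. Of 8 genes for Th1 induction and its cytokine, 5 were lower, or 2 lower and 1 higher relative to the median. Il12rb2, a chain of the interleukin 12 receptor, had 7.40 CPM at day 50 and 26.0 CPM at day 14, and Ifng itself had 326 CPM at day 50 and 402 CPM at day 14.

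In brain the same lists showed few calls between day 50 and day 14, where 5.64% of all genes were lower and 5.16% higher. Of the other IRG genes and the other guanylate-binding proteins 0 were called in either direction, and of the class I and other interferon gamma targets also 0. The receptor list had 1 gene higher, the other IRF list 1 higher, the type I list 1 higher and the Th1 list 1 lower. Between the tissues at day 14, 3 of 5 other IRG genes were higher in spinal cord and 0 lower, with a median log2 ratio of 1.06, against 14.7% of all genes higher and 3.66% lower. The 3 were the scarcer ones. Irgm2 had 8.95 CPM in spinal cord and 4.29 CPM in brain, Tgtp1 9.58 and 3.47 CPM, and Tgtp2 19.0 and 6.37 CPM. Counts of Tgtp1 and Tgtp2 cannot be separated with confidence. The more abundant Ifi47 and Irgm1 had ratios of 1.25 and 1.15 and did not reach 1.5-fold. Of 5 other interferon gamma targets 2 were higher, Cxcl9 and Ciita, and 1 was lower, and of 7 other IRF genes 0 were higher and 1 was lower. The lower genes were Cxcl10 with 4.16 CPM in spinal cord and 25.6 CPM in brain and Irf7 with 43.1 CPM in spinal cord and 76.0 CPM in brain. Between the tissues at day 50, 6 of 11 type I genes and 1 of 5 other IRG genes, Irgm1, were lower in spinal cord, against 4.41% of all genes.

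**Figure D3:**
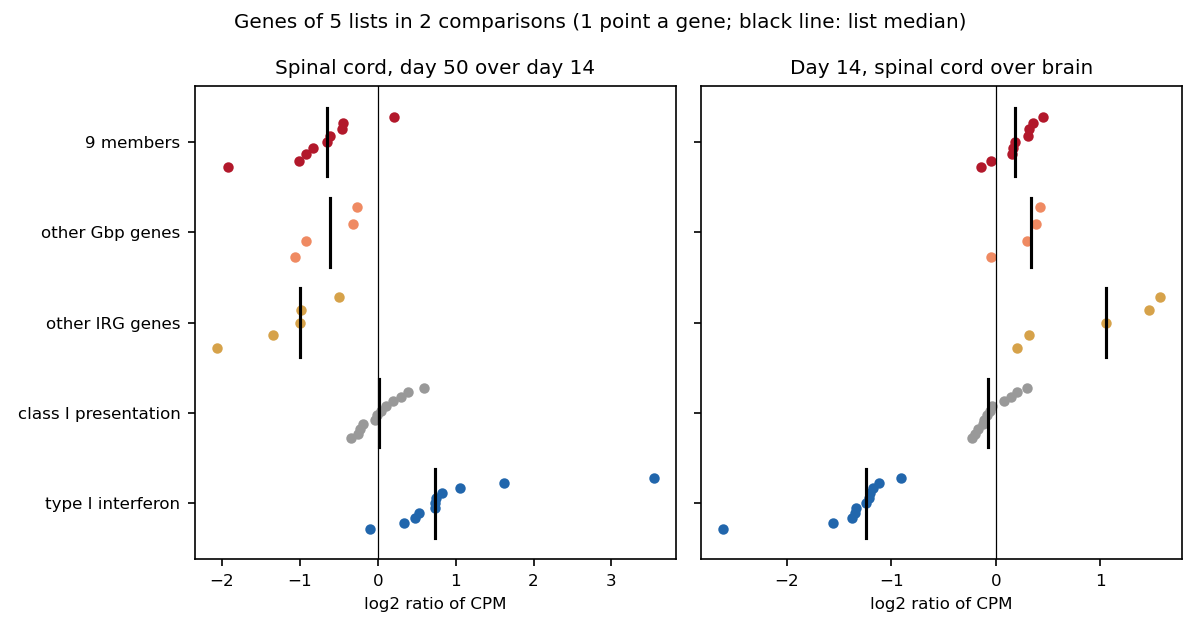
Log2 ratio of CPM (x axis) for each gene of 5 lists (rows, 1 point a gene, black bar the median), for spinal cord at day 50 over day 14 (left) and for day 14 spinal cord over brain (right). The median of the members is -0.65 on the left and 0.18 on the right, that of the other IRG genes -1.0 and 1.06, and that of the type I interferon-stimulated genes 0.73 and -1.24. On the right, Ifi47 and Irgm1, the most abundant of the other IRG genes, lie at 0.32 and 0.20.

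Cells with an Ifng UMI were then set against the cells of the same library without one. This split rests on detected transcripts and does not show which cells make interferon gamma. Detection depends on depth, and of the thinned cells 27.9% to 31.6% had an Ifng UMI. Cells without Ifng UMIs can therefore include cells whose Ifng transcripts were missed. An Ifng UMI was found in 629 of 1620 cells of spinal cord at day 50, 3906 of 9270 at day 14, 136 of 348 cells of brain at day 50 and 4019 of 10313 at day 14, which is 38.8% to 42.1% of cells. Iigp1, Gbp2b, Gbp2 and Gbp4 were lower in the cells with Ifng UMIs, and 0 of the 9 genes were higher, also before adjustment and by DESeq2. The test was edgeR's quasi-likelihood test on 8 summed profiles with the library as a block, adjusted over 13993 genes, of which 3.6% were lower and 4.28% higher. It asks for a difference common to the 4 libraries, which come from different tissues and days and are not replicates of 1 condition.

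Iigp1 stood apart with a log2 difference of -1.43 (SE 0.13, edgeR adjusted p = 2.1e-08). It had 7.17 CPM with and 8.97 CPM without Ifng UMIs in spinal cord at day 50, 5.44 CPM with and 16.5 CPM without at day 14, 9.73 CPM with and 22.6 CPM without in brain at day 50, and 5.41 CPM with and 14.2 CPM without at day 14. It was lower in the Ifng-bearing cells of 4 of 4 libraries, and beyond counting error in the 2 day 14 libraries.

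Gbp2b had a log2 difference of -0.52 (SE 0.10, edgeR adjusted p = 0.00089), Gbp2 of -0.50 (SE 0.10, adjusted p = 0.00098) and Gbp4 of -0.31 (SE 0.08, adjusted p = 0.0135). Gbp2 had 30.5 CPM with and 46.1 CPM without Ifng UMIs in spinal cord at day 14 and 27.2 CPM with and 40.2 CPM without in brain at day 14. At day 50 it had 28.7 CPM with and 21.9 CPM without in spinal cord and 19.5 CPM with and 19.6 CPM without in brain. Gbp2 and Gbp2b were lower in 3 of 4 libraries and Gbp4 in 2 of 4. Without the day 14 brain library, without the day 14 spinal cord library, or by DESeq2, these 3 did not pass, with adjusted p of 0.249 to 0.742, and Iigp1 was then the single member that passed.

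The other 5 members did not pass. Irf1 had a log2 difference of -0.09 (edgeR adjusted p = 0.61), Igtp of -0.16 (adjusted p = 0.35), Gbp5 of -0.23 (adjusted p = 0.29), Gbp3 of 0.07 and Gbp7 of 0.03. Igtp was lower with Ifng UMIs at day 14 and higher in spinal cord at day 50, values whose difference between the days is tested below. It had 80.6 CPM with and 99.1 CPM without Ifng UMIs in spinal cord at day 14 and 66.7 CPM with and 78.0 CPM without in brain at day 14, and 55.0 CPM with and 38.1 CPM without in spinal cord at day 50. Gbp3 likewise had 14.7 CPM with and 8.41 CPM without in spinal cord at day 50. Counted by library, 6 of the 9 intervals lay below no change in each day 14 library, 2 lay above it in spinal cord at day 50, and 0 lay to either side in brain at day 50. This count rests on counting error alone with no minimum fold, and Irf1 in brain at day 14 enters it with a ratio of 0.905. No share of all genes by that rule is given.

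A term for the difference of this contrast between day 50 and day 14, added after the values were seen, passed for 0 of the 9 genes after adjustment (edgeR, adjusted p of 0.24 to 0.92). For Gbp2, whose contrast was higher at day 50 by 0.92 on the log2 scale, the unadjusted p was 0.00088 and the adjusted p 0.24. That of 5 members was under 0.05 before adjustment, as for 990 of all genes, of which 7 passed.

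**Figure D4:**
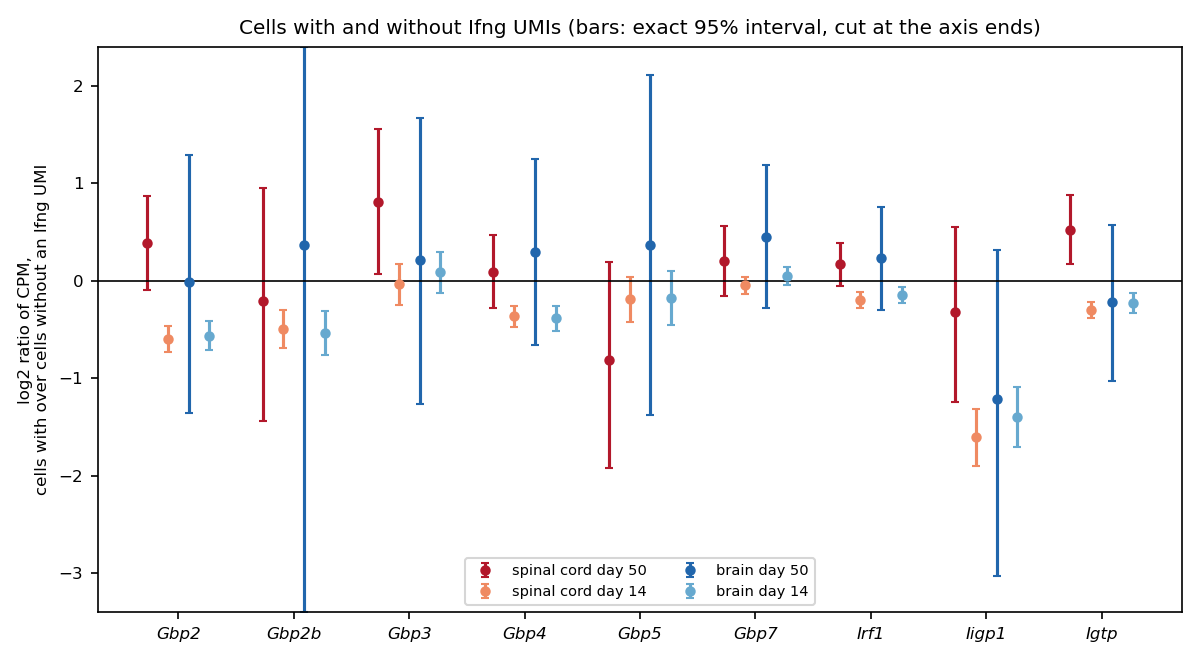
Log2 ratio of CPM in cells with over cells without an Ifng UMI (y axis) for the 9 genes (x axis) in each of the 4 libraries, with exact 95% intervals cut at the axis ends. Iigp1 lies below 0 in all 4 libraries, at -1.60 and -1.40 in the day 14 spinal cord and brain, and Igtp lies at 0.53 in spinal cord at day 50 and at -0.30 at day 14.

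Cells with Ifng UMIs were deeper than those without, with medians of 3763 against 3339 UMIs in spinal cord at day 50, 5369 against 4654.5 at day 14, 3455.5 against 2806 in brain at day 50 and 4734 against 3579.5 at day 14. After thinning to 2000 UMIs, with the Ifng status read again, Iigp1 kept a log2 difference of -1.55 (edgeR adjusted p = 3.3e-12) and Gbp2 passed, while Gbp2b and Gbp4 did not. The part of free Ifng RNA in the status of cells was not tested.

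Iigp1 was lower in the cells with more Ifng UMIs at day 14. In spinal cord at day 14 it had 16.5 CPM in 5364 cells with 0 Ifng UMIs, 7.73 CPM in 2026 cells with 1 to 2, 3.24 CPM in 1504 cells with 3 to 9 and 3.63 CPM in 376 cells with 10 or more. In brain at day 14 the same classes had 14.2, 5.93, 6.05 and 1.44 CPM, the last from 4 UMIs. The intervals of the class with 0 Ifng UMIs did not overlap those of the other 3 classes in either library. Gbp2 had 46.1, 34.0, 28.2 and 23.6 CPM over the 4 classes in spinal cord at day 14 and 40.2, 29.4, 25.7 and 23.8 CPM in brain at day 14. Gbp3 had 15.1, 13.3, 14.3 and 22.9 CPM in spinal cord and 16.0, 15.4, 17.9 and 20.2 CPM in brain, with its highest value in the class of 10 or more. The day 14 order was not seen in spinal cord at day 50. There Gbp2 had 21.9 CPM (17.3 to 27.3) with 0 Ifng UMIs, 19.1 CPM with 1 to 2, 43.1 CPM (30.4 to 59.4) with 3 to 9 and 45.5 CPM, from 6 UMIs, with 10 or more. Iigp1 had 8.97, 5.92, 9.32 and 7.59 CPM over the same classes, the last from 1 UMI, and the 9 genes summed had 277, 294, 351 and 470.3 CPM. In brain at day 50 the class of 10 or more held 3 cells, and Iigp1 had 22.6, 9.67 and 10.8 CPM over the other 3 classes, from 15, 3 and 2 UMIs.

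**Figure D5:**
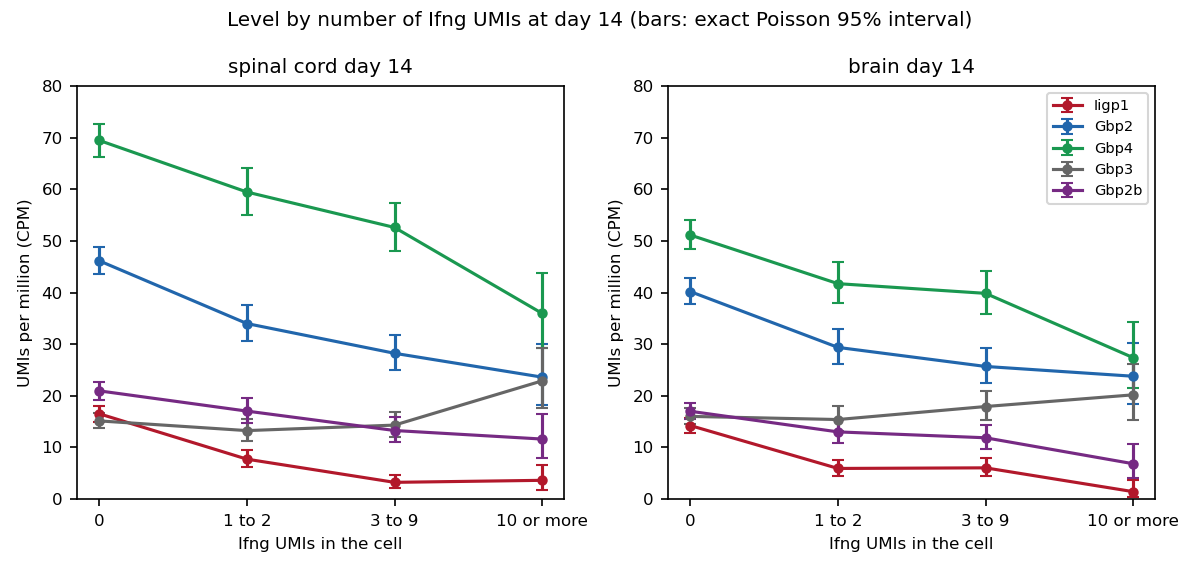
CPM (y axis, linear from 0) of 5 members against the number of Ifng UMIs in the cell (x axis, 4 classes) in spinal cord (left) and brain (right) at day 14, with exact Poisson 95% intervals. Iigp1 is at 16.5 and 14.2 CPM in cells with 0 Ifng UMIs and at 3.63 and 1.44 CPM in cells with 10 or more, while Gbp3 is at 22.9 and 20.2 CPM in the last class.

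In the same test of cells with against without Ifng UMIs, 2 of the 6 receptor and signalling genes reported here were lower and 0 were higher. Of all genes tested, 3.6% were lower and 4.28% higher. Ifngr2 had a log2 difference of -2.31 (SE 0.18, edgeR adjusted p = 1.0e-09) and the kinase gene Jak2 of -0.32 (adjusted p = 0.0135). Of the other IRG genes 3 of 5 were lower, Tgtp1, Tgtp2 and Irgm1, and of the other guanylate-binding proteins 0 of 4 passed. All 4 were lower at an unadjusted edgeR p under 0.05, while their unadjusted DESeq2 p were 0.19 to 0.71. For the counts before adjustment in this paragraph, no share of all genes is given. Of 11 type I genes 2 were lower, Oasl2 and Ifi27l2a. Of 7 Th1 genes other than Ifng 3 were higher, among them Tbx21, the lineage factor of Th1 cells, with a log2 difference of 0.87 (adjusted p = 2.5e-07). Of the other interferon gamma targets 2 of 5 were higher, Cxcl10 and Serpina3g, and 1 was lower, Cd274, which encodes PD-L1. Of the class I genes 0 of 12 passed by edgeR, with 1 higher before adjustment, and of the other IRF genes 0 of 7, with 1 higher and 1 lower before adjustment. By DESeq2, Ifngr2 and Ifi27l2a were lower, Tbx21 and Il18rap were higher, and no other gene of these 8 lists passed. The median log2 difference was -0.23 over the 9 members and -0.0040 over all genes tested. The list genes named in this paragraph were chosen after their values were seen.

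At day 14 the members were higher in cells that held a UMI of another member. In thinned cells of spinal cord at day 14, the summed level of the other 8 members was 1.57 to 3.02 times as high in cells with a UMI of a given member as in cells without, lowest for Irf1 and highest for Iigp1, and all 9 intervals lay above 1. The ratios were 1.48 to 2.91 in brain at day 14, again lowest for Irf1 and highest for Iigp1 with 9 intervals above 1. In spinal cord at day 50 they were 1.33 to 2.01 with 7 intervals above 1, and in brain at day 50 they were 0 to 5.29 with 4 intervals above 1. In that library the ratio was 0 for Gbp2b (2 cells), 0.826 for Gbp3 and 0.98 for Gbp5, with intervals that included 1. No such ratios were taken for other genes, so the interval counts have no share of all genes beside them. At least 3 of the 9 genes were detected in 1.67% of thinned cells of day 50 and 5.72% of day 14 spinal cord, and in 3.2% of brain cells at day 50 and 4.37% at day 14.

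At day 14, cells rich in type I interferon-stimulated transcripts also held more of the members. The sum that ranked the cells rests mostly on 1 gene, Ifi27l2a, with 629 CPM in spinal cord and 1849 CPM in brain at day 14. Bst2, the next of the list, had 165 CPM and 309 CPM. In the thinned cells within the top 10% by summed type I UMIs, Iigp1 was 5.33 times (4.0 to 7.05) as high as in the rest in spinal cord at day 14, 3.93 times (2.83 to 5.38) in brain at day 14 and 3.57 times (1.37 to 8.39) in spinal cord at day 50. Irf1 had the lowest ratio of the 9 at day 14, 1.28 (1.10 to 1.47) in spinal cord and 1.37 (1.19 to 1.58) in brain. Intervals lay above 1 for 9 of 9 genes in both day 14 libraries, for 5 in spinal cord at day 50 and for 2 in brain at day 50. These ratios were taken for the members only, so no share of all genes stands beside the counts. Cells of 1 library are not replicates, and these ratios are descriptions.

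The genes most like the members across cells were ranked by their correlation with the summed log counts of the 9, averaged over the 4 libraries, among 1872 genes at 50 CPM or more in every library. Those named here are Ifi47 with a mean Pearson r of 0.21, Ly6a, Ifi203, Zbp1, Bst2, Slfn1, Samhd1, AW112010 and Ms4a4b, the tenth at 0.16. The median over the genes compared was -0.0025 and the 99th percentile 0.13. Such r are weak in counts this sparse, and the cells of a library share its depth and free RNA.

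The surface antibodies gave another reading of the same cells. Between the cells at or above the 75th percentile and those at or below the 25th percentile of the CD69 count, the summed level of the 9 genes had a ratio of 0.783 (0.754 to 0.814) in spinal cord and 0.813 (0.782 to 0.846) in brain at day 14. At day 50 that CD69 ratio was 0.961 (0.849 to 1.09) in spinal cord and 0.962 (0.745 to 1.24) in brain. For P2X7R the ratio was 1.29 (1.13 to 1.47) in spinal cord at day 50 and 0.892 (0.861 to 0.925) at day 14, and 1.02 (0.792 to 1.32) in brain at day 50 and 0.821 (0.792 to 0.851) at day 14. For CXCR6 it was 1.26 (1.11 to 1.44) in spinal cord at day 50 and 0.931 (0.898 to 0.965) at day 14, and 0.775 (0.589 to 1.02) in brain at day 50 and 0.965 (0.926 to 1.01) at day 14. In spinal cord the summed P2X7R and CXCR6 ratios thus lay above 1 at day 50 and below 1 at day 14. At day 50 there, Igtp had ratios of 2.39 (1.63 to 3.57) for P2X7R and 2.09 (1.45 to 3.06) for CXCR6. Iigp1 had 3.44 (1.28 to 11.6) for P2X7R, and every other member interval for these 2 antibodies included 1. At day 14 the CXCR6 ratio of Igtp in spinal cord was 1.15 (1.06 to 1.25), unlike the sum. Iigp1 was lower in the CXCR6-high cells at day 14, with ratios of 0.431 (0.344 to 0.539) in spinal cord and 0.448 (0.347 to 0.577) in brain. The antibody-high cells were deeper in RNA UMIs in every library, and the part of depth in these ratios was not tested.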

How the data were processed

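Each RNA library was deposited as 1 matrix of unnormalized UMI counts by gene and barcode. The submitters' processing notes name Cell Ranger 6.1.1 and mm10. The antibody counts are features of the same matrices, and the identifiers CD69, P2X7R and CXCR6 were used where the feature names differ (CD3 and CD16 for the last 2). Cells were kept if 500 or more genes were detected and mitochondrial UMIs made up 10% or less. Scrublet (scanpy 1.11.5) called 13 doublets in spinal cord and 5 in brain at day 50 and 0 in both day 14 libraries, where it had not worked, so none were removed. Without the calls the counts of members higher and lower between libraries were the same, and Iigp1 in brain had a log2 ratio of 0.77 (0.05 to 1.42).

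Counts were summed per library and scaled to CPM, with exact Poisson 95% intervals for levels, exact conditional binomial intervals for ratios and Clopper-Pearson intervals for shares. All cover counting error only. Genes with at least 10 UMIs over both libraries were compared. Cells were thinned to 2000 UMIs for shares and co-detection, which left out 127, 142, 98 and 1163 cells of spinal cord day 50, spinal cord day 14, brain day 50 and brain day 14. Cells with and without Ifng UMIs were summed per library and tested with edgeR 4.0.16 (quasi-likelihood, TMM factors, library as a block, Benjamini-Hochberg over all genes but Ifng), with DESeq2 1.42.0 as an alternative. The scripts were tested on simulated data.

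The text names all 9 members, up to 3 genes of each list (those with the largest ratio at 20 CPM or more), and the 10 genes most like the members, of which some are not reported here. The members and lists were chosen with earlier results of these data known. Promoter sequences are from RefSeq (GRCm38.p6).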

Additional observations from a re-analysis of the deposited data

Results flagged for a closer look

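Igtp in cells with against without Ifng UMIs had 1 library apart from the other 3. Its log2 ratio was 0.53 in spinal cord at day 50, -0.30 in spinal cord at day 14, -0.22 in brain at day 50 and -0.23 in brain at day 14, and the gap to the nearest library was 0.899 of the whole range. Chance marks about 1 in 20 groups of values in this way, and 9 genes were examined.

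The same contrast had opposite signs in the day 50 and the day 14 libraries for Gbp4 and Irf1. The log2 difference between the days was 0.51 for Gbp4 (edgeR adjusted p = 0.56) and 0.36 for Irf1 (adjusted p = 0.54), so neither passed the test of the difference. Gbp4 had a log2 ratio of 0.10 in spinal cord and 0.30 in brain at day 50, and of -0.36 in spinal cord and -0.38 in brain at day 14. Irf1 had 0.17 in spinal cord and 0.23 in brain at day 50, and -0.20 in spinal cord and -0.14 in brain at day 14.

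Iigp1 was higher at day 50 than at day 14 in brain (log2 ratio 0.74) and had a log2 ratio of -0.46 in spinal cord, where it did not reach 1.5-fold. The 2 ratios differed by 1.21, and this difference was not tested, since each group is 1 library.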

How the results depend on the processing

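No paired analysis between libraries was possible because the labels number no replicates, with 1 library in every group. The Ifng contrast was paired within each library. In brain between the days, 0 members were higher with all deposited barcodes, after thinning, without cells above the 95th UMI percentile, without the 2 richest cells and at a fold of 2. There 4 were lower without the 2 richest cells and 1 at a fold of 2. In spinal cord, 3 were lower relative to the all-gene median and 2 at a fold of 2. Between the tissues at day 50, 0 were lower after thinning or without the 2 richest cells, and 1 (Gbp2b, with 0 UMIs left in brain) was higher without those cells. Of the single values, 20 moved by more than the counting interval and 304 were labelled the same. The 304 include values at a fold of 2, where the ratio itself cannot change. They also include differences of thinned shares, which were judged by their sign alone.

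In the Ifng contrast DESeq2 called 160 genes higher, 171 lower and 1 member. Thinning gave 296, 267 and 2, and leaving out the library block gave 1, 3 and 0. Leaving out each library in turn gave 163 to 591 genes higher, 141 to 516 lower and 1 to 5 members lower. The lowest counts came without the day 14 brain library and the fifth member, Igtp, without the day 50 spinal cord library (adjusted p = 0.0152). Iigp1 kept its sign in every alternative, at -1.78 to -1.20, and missed the threshold without the library block (adjusted p = 0.25, and at most 0.00028 otherwise). Gbp7 changed sign to -0.052 with at least 3 Ifng UMIs, and Irf1 ranged over -0.16 to 0.0040 with 1 library left out, the last without spinal cord at day 14. The causes were not tested. Depth limits brain at day 50 most, with 348 cells and 373 UMIs of the 9 genes.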

Other observations

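Ifngr2, the signalling chain of the interferon gamma receptor, was singled out after its values were seen. It had 12 CPM (73 UMIs) in spinal cord at day 50 and 3.27 CPM (166 UMIs) at day 14, and 15.3 CPM (18 UMIs) in brain at day 50 and 7.19 CPM (340 UMIs) at day 14. Its log2 ratio of day 50 over day 14 was 1.88 in spinal cord and 1.09 in brain, higher in both. In cells with against without Ifng UMIs it had 1.99 CPM with and 19.1 CPM without in spinal cord at day 50, 1.35 CPM with and 4.96 CPM without at day 14, 1.95 CPM with and 25.6 CPM without in brain at day 50, and 2.32 CPM with and 11.4 CPM without at day 14. It was lower in the cells with Ifng UMIs in 4 of 4 libraries (edgeR log2 difference -2.31, adjusted p = 1.0e-09, and -2.46 by DESeq2, adjusted p = 5.5e-09). Ifngr1, the binding chain of the same receptor, had a log2 difference of 0.07 in that test (edgeR adjusted p = 0.53).

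Igtp, singled out after its values were seen, was also set against the surface CXCR6 count, between the cells at or above the 75th percentile (CXCR6-high) and those at or below the 25th (CXCR6-low). It had 62.5 CPM in CXCR6-high and 29.9 CPM in CXCR6-low cells of spinal cord at day 50, a ratio of 2.09 (1.45 to 3.06). In spinal cord at day 14 it had 97.2 CPM in CXCR6-high and 84.4 CPM in CXCR6-low cells (ratio 1.15, 1.06 to 1.25). In brain it had 61.6 CPM in CXCR6-high and 61.3 CPM in CXCR6-low cells at day 50 (ratio 1.01, 0.503 to 2.09), and 83 CPM in CXCR6-high and 63.6 CPM in CXCR6-low cells at day 14 (ratio 1.30, 1.18 to 1.44). CXCR6-high cells held more RNA UMIs, with medians of 4111 against 3003 in spinal cord at day 50, 5477 against 4347.5 in spinal cord at day 14, 4029 against 2077 in brain at day 50 and 5133.5 against 2837.5 in brain at day 14. The part of depth in these ratios was not tested, and their intervals cover counting error only.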
